A study of Mus musculus with 8 samples.

Results

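Transcripts of 9 cathepsins and of legumain, the lysosomal protease genes Ctsa, Ctsb, Ctsc, Ctsd, Ctsh, Ctsk, Ctsl, Ctss, Ctsz and Lgmn, were described in macrophages of mouse pancreatic islets. The 10 genes were the rows of the deposited table, which holds 48440 genes, whose symbol matched one of these names. Libraries came from CD11b and F4/80 double-positive cells of wild-type male C57BL/6J mice aged 16 weeks. The mice had been kept for 8 weeks on chow (8% fat, 21% protein, 71% carbohydrate; 10.88 kJ/g) or on a high-fat diet (HFD; 45% fat, 20% protein, 35% carbohydrate; 19.67 kJ/g). Each diet had 4 libraries, chow replicates 1 to 4 and HFD replicates 5 to 8, and each library pooled 2 mice, so the spread between single mice was not measured. The comparison of the diets asked which macrophage transcripts differ after the high-fat diet.

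Cathepsins are made as inactive precursors, carried to endosomes and lysosomes largely by mannose 6-phosphate receptors, and activated there by cleavage at low pH. Most of the genes described here encode papain-type cysteine proteases, while cathepsin D is an aspartic protease, cathepsin A a serine carboxypeptidase that also protects other lysosomal enzymes, and legumain a protease that cuts after asparagine. In macrophages these enzymes degrade phagocytosed protein, and cathepsin S trims the invariant chain from MHC class II molecules.

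Transcription factors of the MiT family (Tfeb, Tfe3, Mitf) bind an E-box, CACGTG, in promoters of many lysosomal genes. RefSeq promoter windows of 300 bases (250 before and 50 after a start, GRCm38.p6) were found for 8 of the 10 genes, 10 windows in all, and searched for it; Ctsb and Ctsh had no entry. CACGTG reads the same on both strands, and it was present in 4 of the 10 windows, those of Ctsa, Ctsd, Ctsl and Lgmn, against 7.15% of all 32851 windows. The form TCACGTG on either strand was present in 3 of them, Ctsa, Ctsd and Lgmn, against 3.77% of all windows. The palindrome TCACGTGA, which contains both shorter forms, was present in Ctsa and Ctsd, against 0.974% of all windows. For Ctsa, Ctsd and Lgmn 1 site each is shown, because these genes share TCACGTG. Their log2 fold changes between the diets are given below, and none of them passed the main test after adjustment. The windows of Ctsa and Ctsd each hold 1 more CACGTG, 6 bases after and 245 bases before the start. The hexamer is in capitals.
Ctsd, 98 bases before the start: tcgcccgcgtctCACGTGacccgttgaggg
Ctsa, 12 bases before its downstream start: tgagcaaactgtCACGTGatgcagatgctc
Lgmn, 49 bases before its downstream start: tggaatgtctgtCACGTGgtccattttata
These stretches lie at chr7:142387908-142387937 (minus strand), chr2:164833749-164833778 (plus strand) and chr12:102439124-102439153 (minus strand). Each lies within the span of its GENCODE M21 gene model, which starts further upstream. A match describes the letters only, and binding was not measured.

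The 10 genes lie on 7 chromosomes (GRCm38, GENCODE M21). Ctsk, at chr3:95499256-95509362, and Ctss, at chr3:95526786-95556403, are near neighbours on the plus strand. Ctsa (chr2:164832873-164841032, plus) and Ctsz (chr2:174427493-174439039, minus) share chromosome 2, and Ctsc (chr7:88278085-88310888, plus) and Ctsd (chr7:142375911-142388038, minus) share chromosome 7. Ctsb lies at chr14:63122462-63145923 (plus), Ctsh at chr9:90054152-90076089 (plus), Ctsl at chr13:64359337-64370890 (minus) and Lgmn at chr12:102394084-102439813 (minus). The deposited table gives a single value per gene and library, and the exons counted for it are not stated.

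Per kilobase of exon, Ctss was the most abundant of the 10 transcripts and Ctsk the least. The level of Ctss was 2565 CPM per kb on chow and 2143 on HFD (CPM, counts per 1000000 of the library's total after TMM scaling, which corrects for library composition, as means of 4 libraries). It was followed by Ctsb (179 and 241), Ctsd (113 and 219), Ctsc (149 and 160.3), Ctsh (108 and 97.1), Ctsz (90.7 and 97.8), Lgmn (93.8 and 92.4), Ctsa (45.2 and 48.6) and Ctsl (14.8 and 9.50). Over the 8 libraries Ctss did not go under 1695 CPM per kb, and no other member went above 321, so the gap below Ctss was wider than the spread. The ranges of Ctsb, Ctsd and Ctsc over the 8 libraries overlapped, as did those of Ctsh, Ctsz and Lgmn. The Ctsc range, 143 to 166, lay above that of Ctsh, 56.1 to 125. The highest Ctsl value, 26.1, lay under the lowest Ctsa value, 31.5. In CPM not divided by length these ranges overlapped, with Ctsl up to 169 and Ctsa down to 149, so this separation rests on exon length. Exon length was the union of all annotated exons, which is longer than any one transcript.

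The summed level of the 10 genes was 6846 ± 548 CPM on chow and 6900 ± 107 CPM on HFD (SD, n = 4), and its make-up differed between libraries. Ctss supplied 47.6%, 55.1%, 51.3% and 48.9% of the summed counts in chow replicates 1 to 4. In HFD replicates 5 to 8 it supplied 34.1%, 39.2%, 42.3% and 53.0%. For Ctss, HFD replicates 5, 6 and 7 were below every chow library, and HFD replicate 8 lay within the chow range. Ctsb supplied 14.4% to 16.9% on chow and 28.8%, 22.1%, 19.5% and 14.4% in HFD replicates 5 to 8. Ctsd supplied 2.64% to 5.31% on chow and 8.60%, 9.74%, 6.98% and 4.50% on HFD. For these genes HFD replicates 5, 6 and 7 were above every chow library, while HFD replicate 8 was within the chow range for Ctsd and at its lower edge for Ctsb. How often all HFD libraries but 1 lie on the same side of the chow range over all genes was not counted. This arrangement is therefore a description only, here and for the single genes below. Such shares do not depend on the scaling between libraries. In bulk RNA, fewer cells of a type and less RNA per cell cannot be told apart.

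**Figure D1:**
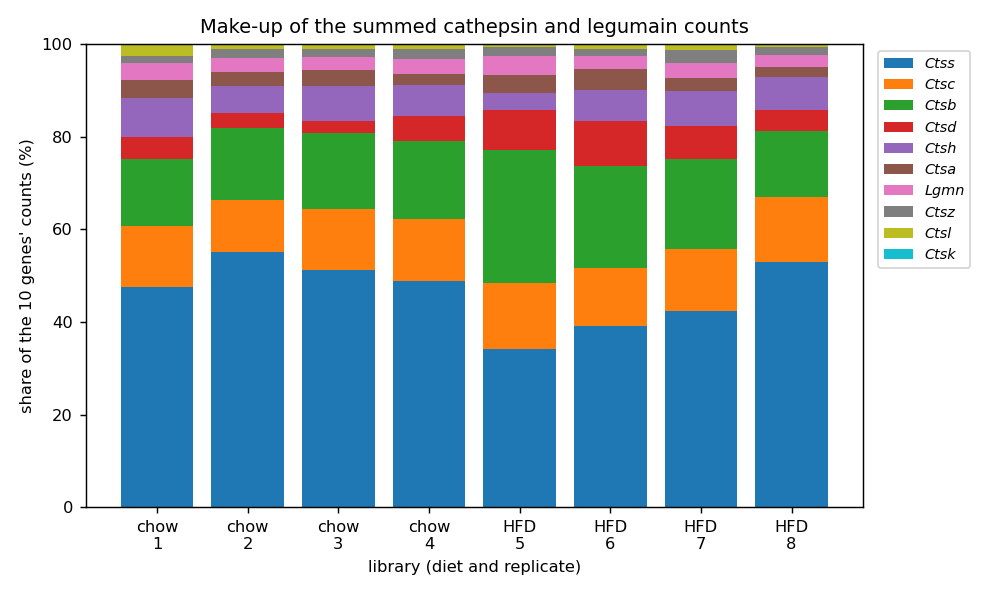
Stacked bars give the share of each gene in the summed counts of the 10 genes (y axis, %) for each library (x axis, diet and replicate). The Ctss part is smallest in HFD replicates 5, 6 and 7, at 34.1% to 42.3%, and is 53.0% in HFD replicate 8; Ctsk is too small to be seen.

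No member passed the test across all genes for a difference between the diets, which does not show that their levels were equal. edgeR's quasi-likelihood test with Benjamini-Hochberg adjustment called 0 of the 9 members that passed the filter on low counts, against 0.0% of all 10129 genes tested. At an unadjusted p under 0.05, 2 members were higher on HFD, Ctsd and Ctsb, against 2.61% of all genes, and 0 were lower, against 2.74% (5.35% in both directions). No tested member had groups that did not overlap, while 1.68% of all genes had them with HFD higher and 1.71% with HFD lower (3.39% together). Of the 9 tested members 5 were higher and 4 lower on HFD, and their median on the log2 scale was 0.10 beside -0.021 over all genes. DESeq2 called 0 members against 0.734% of all genes, and limma-voom, run with quality weights, 0 against 0.00987%. edgeR with no filter called 1, Ctsd, against 0.25%. Without HFD replicate 8 edgeR called 11 genes (0.103%), none of them a member.

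Ctsd encodes cathepsin D, the main aspartic protease of lysosomes, and had the smallest p of the members, the 13th smallest of all genes tested. Its level was 310.5, 237, 187 and 331 CPM in chow replicates 1 to 4. In HFD replicates 5 to 8 it was 581, 679, 488 and 309.7 CPM. HFD replicates 5, 6 and 7 were above every chow library, and HFD replicate 8 was within the chow range, so the groups overlapped. The share of all genes with all HFD libraries but 1 on the same side of the chow range was not counted. The means were 266 ± 66.4 CPM on chow and 514 ± 157 CPM on HFD (SD, n = 4), a log2 fold change of 0.95 (SE 0.24; unadjusted p = 0.000838, edgeR adjusted p = 0.585). The adjusted p ranged from 0.0137 to 0.995 over the alternatives, the lowest being that without a filter on low counts. It was 0.0779 with DESeq2 and 0.0738 without HFD replicate 8, where the log2 fold change was 1.13 (SE 0.22). With each library left out in turn the log2 fold change ran from 0.78 to 1.13.

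The count of Ctsd depends on how reads were divided with a neighbour. The model Gm49369 shares 808 exon bases with Ctsd on the same strand, and all 8 Ctsd values in the table were fractional. Gm49369 was at 134, 82.9, 196 and 202 CPM in chow replicates 1 to 4 and at 178, 322, 195 and 55.8 CPM in HFD replicates 5 to 8. With both summed, a step chosen after seeing the data, the level was 319.6 to 533 CPM on chow and 759, 1000.3, 684 and 366 CPM on HFD. HFD replicates 5, 6 and 7 again lay above every chow library and HFD replicate 8 among them. The log2 fold change of the sum was 0.74 (SE 0.24, edgeR adjusted p = 0.752).

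Ctsb encodes cathepsin B, a cysteine protease with both endopeptidase and carboxypeptidase activity. It was at 949, 1167, 1163 and 1054 CPM in chow replicates 1 to 4 and at 1943, 1537, 1367 and 990.0 CPM in HFD replicates 5 to 8. Again HFD replicates 5, 6 and 7 exceeded every chow library, and HFD replicate 8 was among the chow values. The log2 fold change was 0.43 (SE 0.17; unadjusted p = 0.0213, edgeR adjusted p = 0.810). Without HFD replicate 8 it was 0.57 (SE 0.15, adjusted p = 0.359), the highest value with 1 library left out. The lowest such value was 0.26. Ctsb shares 774 exon bases with Fdft1 on the other strand, where no library had more than 38 counts, and all 8 Ctsb values in the table were fractional.

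Ctss encodes cathepsin S, a cysteine protease that stays active at neutral pH. It was at 3133, 4112, 3644 and 3044 CPM in chow replicates 1 to 4 and at 2302, 2732, 2961 and 3647 CPM in HFD replicates 5 to 8. Here HFD replicates 5, 6 and 7 were below every chow library and HFD replicate 8 was within the chow range. The log2 fold change was -0.26 (SE 0.14; unadjusted p = 0.0779, edgeR adjusted p = 0.957), and it was negative in all alternatives, from -0.39 to -0.12. The ratio of Ctsb to Ctss counts, which no scaling changes, was 0.303, 0.284, 0.319 and 0.346 in chow replicates 1 to 4. It was 0.844, 0.563, 0.462 and 0.271 in HFD replicates 5 to 8, the last of these being the lowest of the 8 libraries. The ratio of Ctsd to Ctss ran from 0.0514 to 0.109 on chow and was 0.252, 0.248, 0.165 and 0.0849 on HFD. Both ratios set a member that was higher on HFD over one that was lower, so they restate the values above. The ratio of Ctsd to Ctsb ran from 0.161 to 0.327 on chow and was 0.299, 0.442, 0.357 and 0.313 on HFD. That of Ctsl to Ctss ran from 0.0192 to 0.0541 on chow and was 0.0181, 0.0267, 0.0308 and 0.0112 on HFD. Neither of these set HFD replicates 5, 6 and 7 apart from every chow library.

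**Figure D2:**
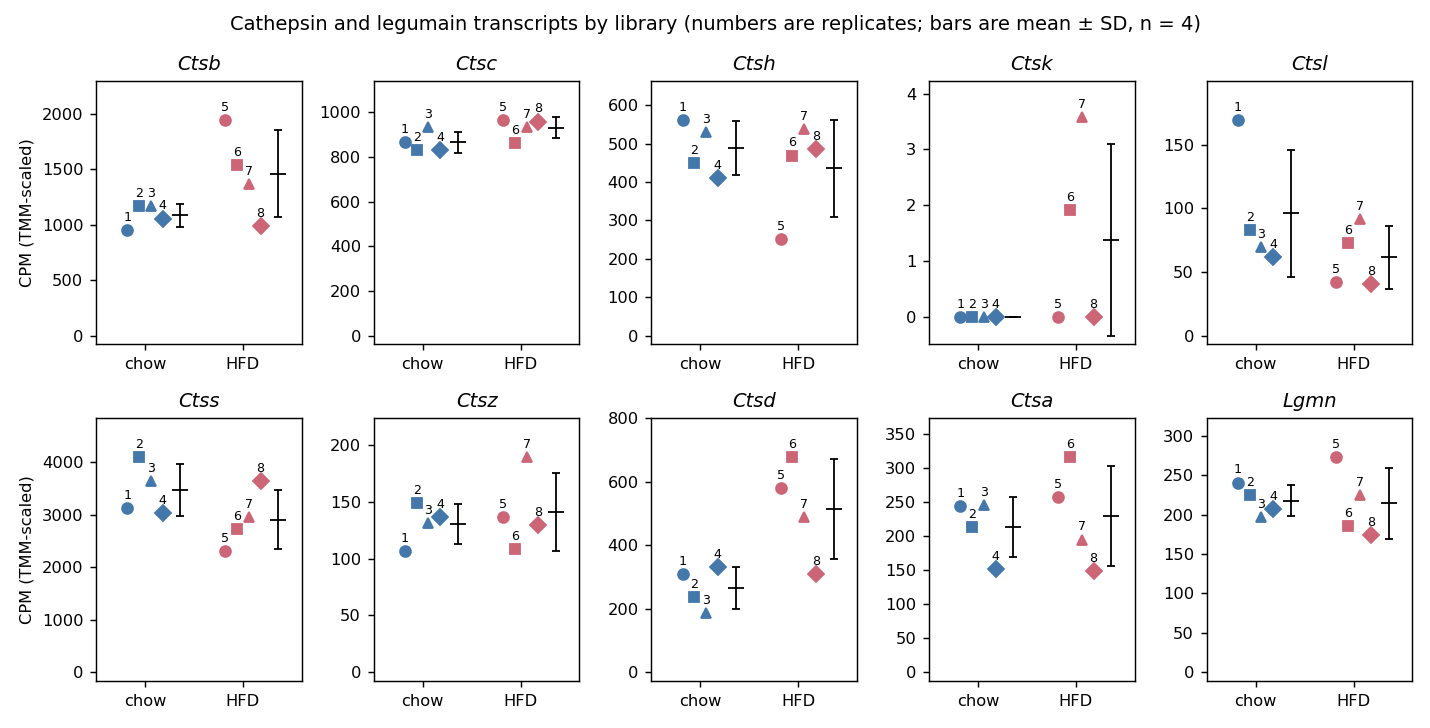
Each panel plots 1 gene, with its TMM-scaled CPM on a linear y axis and the diets on the x axis; points are libraries numbered by replicate, and black bars are the mean ± SD of 4 libraries. In Ctsd and Ctsb the points 5, 6 and 7 lie above all chow points and point 8 among them, and in Ctss points 5, 6 and 7 lie below all chow points.

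Ctsc encodes cathepsin C, the aminopeptidase that activates granule serine proteases of neutrophils, mast cells and cytotoxic lymphocytes. It was the steadiest member, at 868, 833, 934 and 833 CPM on chow and 967, 863, 936 and 959 CPM in HFD replicates 5 to 8. HFD replicates 5, 7 and 8 were above every chow library, and HFD replicate 6 was within the chow range. The log2 fold change was 0.10 (SE 0.14, edgeR adjusted p = 0.987), with a range of 0.076 to 0.18 over the alternatives. All 8 of the granule serine proteases listed as its substrates, Elane, Prtn3, Ctsg, Gzma, Gzmb, Gzmc, Cma1 and Mcpt4, had 0 counts in every library. The upper limit that 0 counts set was 0.468 to 0.708 CPM, depending on the library, taken as 3 counts of its scaled total and covering counting error only.

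Ctsh encodes cathepsin H, an aminopeptidase. It was at 562, 449, 531 and 411 CPM on chow and at 252, 469, 539 and 486 CPM in HFD replicates 5 to 8, so that HFD replicate 5 alone was below the chow range. The log2 fold change was -0.16 (SE 0.21, edgeR adjusted p = 0.987), and 0.033 without HFD replicate 5. Ctsl encodes cathepsin L, an endopeptidase of lysosomes. It was at 169, 83.1, 69.9 and 61.6 CPM on chow and at 41.7, 72.9, 91.3 and 40.8 CPM on HFD, with chow replicate 1 highest. Its log2 fold change was -0.64 (SE 0.41, edgeR adjusted p = 0.987), and -0.22 without chow replicate 1. Ctsz encodes cathepsin Z, a carboxypeptidase. It was at 107, 149, 131 and 136 CPM on chow and at 136, 109, 189.7 and 129 CPM on HFD, a log2 fold change of 0.11 (SE 0.28, edgeR adjusted p = 0.987) that was -0.069 without HFD replicate 7. Ctsl shares exon bases with the antisense model Gm47123 and the pseudogene Gm49230, and none of its 8 values was fractional.

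Ctsk encodes cathepsin K, the collagen-degrading protease of osteoclasts, which activated fibroblasts also make. It was detected in HFD replicates 6 and 7 only, with 11 and 17 counts (1.91 and 3.58 CPM), and had 0 counts in the other 6 libraries. It did not pass the filter on low counts and was not tested. Over the diet groups it had 28 counts on HFD and 0 on chow, at least 9.06-fold higher in CPM against a floor of 3 counts over the chow group. This bound rested on 2 libraries and was 7.65-fold without HFD replicate 6 and 4.63-fold without HFD replicate 7. With no filter its edgeR adjusted p was 0.428. Of the other genes in the list of osteoclast-type genes, Calcr, Oscar, Mmp9 and Itgb3 had 0 counts in every library. The proton pump subunit gene Atp6v0d2 was at 0 in chow replicates 1 to 3 and 3.304 CPM in chow replicate 4, and at 4.96, 3.65, 16.2 and 0 CPM in HFD replicates 5 to 8. The receptor gene Tnfrsf11a, which encodes RANK, was at 136 to 259 CPM on chow and 136 to 169 CPM on HFD. Acp5 was at 24.9 ± 13.1 and 17.6 ± 2.88 CPM, and the transcription factor gene Nfatc1 at 151 ± 54.0 and 168 ± 33.7 CPM (SD, n = 4). Of the 5 tested genes of this list 2 were higher and 3 lower, and 0 were called.

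Ctsa was at 244, 213, 245 and 152 CPM on chow and at 258, 316, 195 and 149 CPM in HFD replicates 5 to 8. The groups overlapped widely, and the log2 fold change of 0.11 (SE 0.26, edgeR adjusted p = 0.987) turned to -0.034 without chow replicate 4 and -0.099 without HFD replicate 6. Ctsa shares 495 exon bases with Pltp on the other strand, and 6 of its 8 values were fractional; Pltp had 0 to 609 counts on chow and 26 to 537 on HFD. Lgmn was at 241, 226, 197 and 208 CPM on chow and at 274, 186, 225 and 174 CPM on HFD, a wider range on HFD about nearly the same mean. Its log2 fold change was -0.022 (SE 0.23, edgeR adjusted p = 0.994), a value near 0 whose sign changed under several alternatives. It was 0.027 without chow replicate 1, 0.034 without HFD replicate 6 and 0.065 without HFD replicate 8. Of the genes with TCACGTG in the promoter windows shown above, Ctsd had a log2 fold change of 0.95, Ctsa of 0.11 and Lgmn of -0.022. A part of the E-box in these values was not tested.

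**Figure D3:**
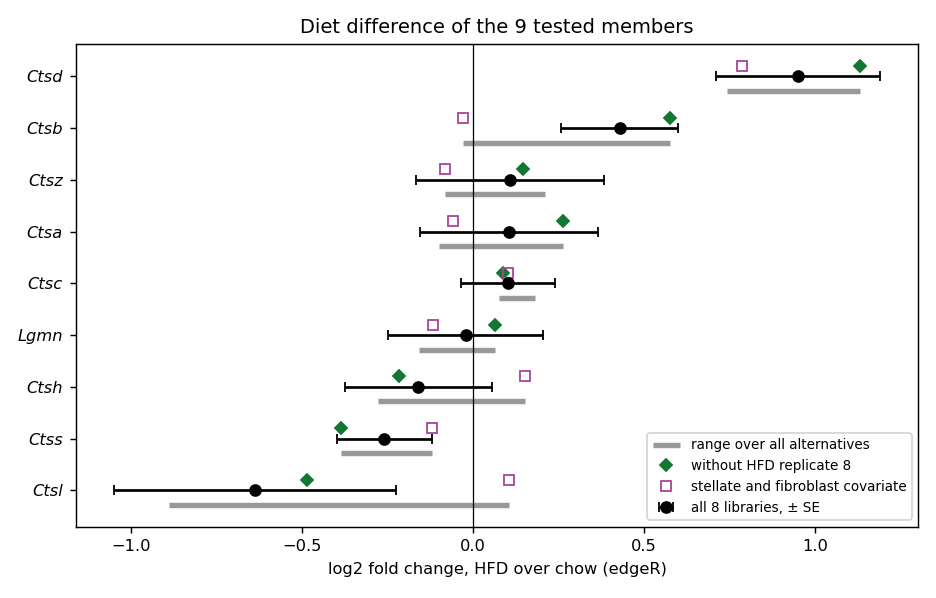
Black points are log2 fold changes (x axis, HFD over chow, edgeR) of the 9 tested genes with their SE, grey bars the range over all alternatives, green diamonds the value without HFD replicate 8 and open squares the value with stellate and fibroblast transcripts as a covariate. Ctsd stays between 0.74 and 1.13, while the grey bars of Ctsb, Ctsz, Ctsa, Lgmn, Ctsh and Ctsl cross 0.

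Transcripts of the sorted cells and of other cells were summed per library beside these values. The macrophage list (14 genes, all tested) was at 6418 to 8562 CPM on chow and 6555 to 7632 CPM on HFD, with Lyz2, Csf1r and Cx3cr1 highest. The stellate and fibroblast list (18 genes, 5 of them tested) was at 24.3, 94.0, 133 and 119 CPM on chow and at 518, 325, 309 and 109.9 CPM in HFD replicates 5 to 8. Its difference had a two-sided exact permutation p of 0.0857 (adjusted p = 0.419 over 11 lists; the smallest p that 4 against 4 allows is 0.0286, so a single list could not pass after adjustment). Its most abundant genes were Rgs5, a pericyte gene, Col3a1 and Sparc. Col3a1 was at 0.225, 0, 0 and 1.89 CPM on chow and at 144, 47.4, 61.5 and 0.201 CPM on HFD, and Col1a1 at 0 on chow and at 72.5, 41.2, 30.8 and 0.201 CPM on HFD. Lum, a fibroblast proteoglycan gene, was at 11.3, 13.5, 12.7 and 0 CPM on HFD and 0 on chow. Rgs5 went otherwise, at 0, 78.8, 128 and 85.4 CPM on chow and 31.2, 50.5, 25.1 and 97.0 CPM on HFD. Sparc was at 23.8, 1.72, 1.24 and 0.472 CPM on chow and 83.2, 60.1, 20.0 and 4.42 CPM on HFD. Postn was at 0.225, 13.1, 0.207 and 24.3 CPM on chow and 3.57, 2.60, 35.8 and 0 CPM on HFD. Thy1, Fbln1, Acta2 and Des did not exceed 3.13 CPM in any library. The libraries with the most Col3a1 and Col1a1 transcripts, HFD replicates 5, 6 and 7, were those outside the chow range for Ctsd, Ctsb and Ctss. The covariate from this list left Ctsd at 0.79 (SE 0.37) and moved Ctsb from 0.43 to -0.028 (SE 0.21) and Ctss from -0.26 to -0.12 (SE 0.18), with edgeR adjusted p-values of 0.995 to 0.998. The sum was highest in HFD replicates 5, 6 and 7, so this covariate overlaps with diet and the 2 cannot be told apart. In chow replicates 2 to 4 and HFD replicate 8 most of the sum was Rgs5, so it did not follow the collagen transcripts there. The part of these transcripts in the values of Ctsd, Ctsb and Ctss was not tested.

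The sums of the other lists did not set HFD replicates 5, 6 and 7 apart from the other libraries in this way, except that the low ductal sum was 14.1 to 18.5 CPM in them and 6.14 CPM or less elsewhere. In these 3 libraries that sum was mostly Spp1, at 14.7, 11.3 and 13.9 CPM, a gene that macrophages also express, while Krt8, Sox9 and Cftr were at 0 in every library. The acinar list was at 0.225, 2.65, 2041 and 4229 CPM on chow and 134, 92.0, 2217 and 51.2 CPM on HFD, and the islet endocrine list at 494 to 1907 CPM on chow and 1064 to 1894 CPM on HFD. Of the neutrophil list 10 of 12 genes, among them S100a8 and S100a9, and of the mast cell list 8 of 8 were at 0 in every library. The B cell list was at 284 to 490 CPM on chow and 215 to 327 CPM on HFD, with Cd79a and Pax5 at 0 in every library. The dendritic cell list was at 278 to 332 CPM on chow and at 163, 292, 270 and 269 CPM on HFD, with Siglech, Clec9a and Dpp4 highest and Ccr7 at 0. Its exact permutation p, 0.0571 (adjusted p = 0.419), was the smallest of the 11 lists. Clec9a was at 49.6, 122, 76.3 and 38.9 CPM on chow and 27.2, 26.6, 32.7 and 11.9 CPM on HFD. Its groups did not overlap, as in 1.71% of all genes in this direction, while those of Siglech and Dpp4 did. Zbtb46 went otherwise, with means of 5.10 and 15.5 CPM. Endothelial, ductal and T and NK cell sums did not exceed 24.9, 18.5 and 48.3 CPM.

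**Figure D4:**
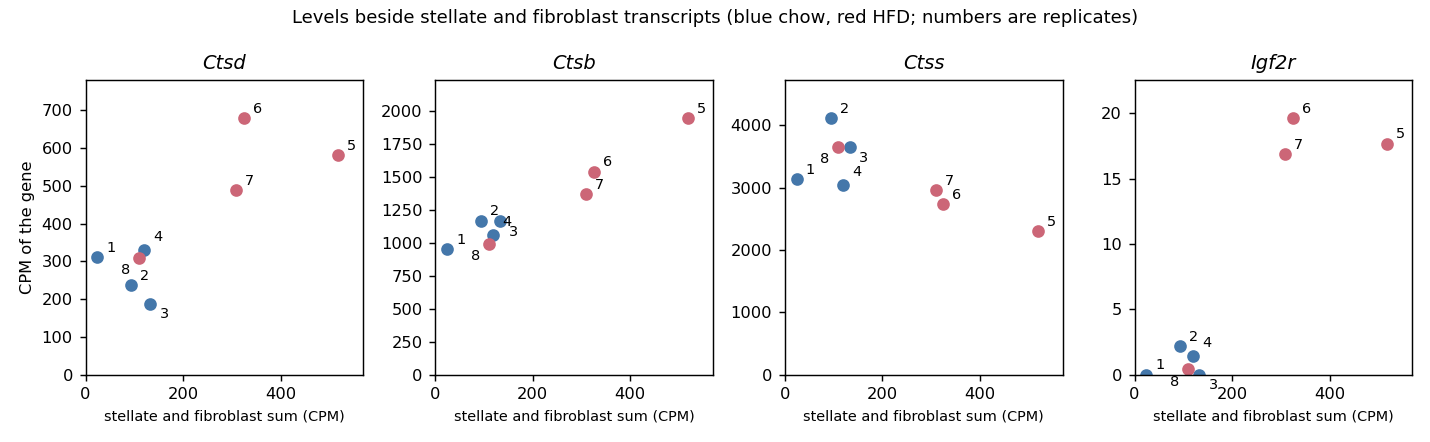
Each panel plots the CPM of a gene (y axis) against the summed CPM of the stellate and fibroblast list (x axis) in 8 libraries, blue for chow and red for HFD, numbered by replicate. Points 5, 6 and 7 lie at 309 CPM or more on the x axis and at the top of the Ctsd, Ctsb and Igf2r panels, and point 8 lies with the chow points.

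Most of the remaining cathepsin genes were not detected. Of 14 other cathepsins 11 had 0 counts in every library, among them Ctsg and Ctsw of neutrophils and cytotoxic lymphocytes and the placental cathepsins. Only Ctso and Ctse passed the filter, and 0 were called. Ctso was at 87.3 ± 45.3 CPM on chow and 84.9 ± 28.7 CPM on HFD, and Ctse, an aspartic protease of endosomes, at 13.0 ± 14.7 and 9.04 ± 5.96 CPM (SD, n = 4).

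Among genes that restrain cathepsins, Cst3 was the most abundant, and 10 of the 16 found in the table had 0 counts in every library. Cst3 encodes cystatin C, a secreted inhibitor of cysteine cathepsins. It was at 574, 751, 682 and 572 CPM on chow and 445, 559, 530.3 and 619 CPM in HFD replicates 5 to 8, a log2 fold change of -0.26 (SE 0.17, edgeR adjusted p = 0.987). Cstb encodes cystatin B, an inhibitor inside the cell. It was at 15.7, 12.5, 14.1 and 21.9 CPM on chow and 46.1, 31.1, 87.0 and 6.83 CPM on HFD, so that HFD replicates 5, 6 and 7 were above and HFD replicate 8 below every chow library. Its log2 fold change was 1.41 (SE 0.67; unadjusted p = 0.0501, edgeR adjusted p = 0.934), and the stellate and fibroblast covariate moved it to 0.54 (SE 1.13). The serpin gene Serpinb6a was at 0, 10.1, 25.9 and 5.19 CPM on chow and 85.4, 27.3, 33.1 and 0 CPM on HFD. Ctla2b, related to cathepsin propeptides, was at 22.8 ± 18.1 and 21.8 ± 11.2 CPM. Of the 4 tested inhibitors 2 were higher and 2 lower, and 0 were called.

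Genes that sort enzymes to lysosomes were more often higher than lower, 14 against 5 of 19 tested beside 4925 against 5204 of all genes, with a median log2 fold change of 0.16 beside -0.021 for all genes and 0 called. At an unadjusted p under 0.05, 2 were higher and 0 lower, against 2.61% and 2.74% of all genes. Igf2r encodes the large mannose 6-phosphate receptor, which carries cathepsin precursors. It was at 0, 2.19, 0 and 1.42 CPM on chow and 17.7, 19.6, 16.9 and 0.402 CPM in HFD replicates 5 to 8, a log2 fold change of 3.87 (SE 1.504, edgeR adjusted p = 0.784). With the stellate and fibroblast covariate it was -0.50 (SE 1.73). Vps35, a retromer subunit gene, was at 82.7 ± 36.3 CPM on chow and 148 ± 42.2 CPM on HFD. Lrp1, an endocytic receptor gene, was at 243 ± 95.2 and 368 ± 129 CPM. Grn, the progranulin gene, was at 268 ± 37.1 and 395 ± 229 CPM, and HFD replicate 5, at 733 CPM, was its highest library. The log2 fold changes of Vps35, Lrp1 and Grn were 0.84, 0.60 and 0.56, and 0.28, 0.65 and 0.022 with that covariate.

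The MiT factors and the genes that control them by nutrient supply had a median of 0.093 over 19 tested genes, 11 higher and 8 lower, and 0 called at an adjusted or an unadjusted p of 0.05. The 4 with the smallest p were Tfec, an MiT family member, at 8.23 ± 8.55 and 29.6 ± 23.8 CPM, Fnip1 at 85.0 ± 38.6 and 140.5 ± 37.6 CPM, Mtor at 39.7 ± 9.98 and 62.5 ± 16.4 CPM, and Rragc at 72.9 ± 16.5 and 91.1 ± 21.8 CPM. The log2 fold changes of these 4 were 1.85, 0.73, 0.65 and 0.32. With the stellate and fibroblast covariate they were 2.88, 1.08, 0.94 and 0.034. Tfeb, Mitf and Tfe3, the factors with which the E-box search began, were outside the rule for named genes; their log2 fold changes were -0.060, -0.036 and 0.37.

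Of 32 other lysosomal hydrolases 16 were higher and 16 lower on HFD, with a median of 0.015 and 0 called. At an unadjusted p under 0.05, 3 were higher and 0 lower, against 2.61% and 2.74% of all genes. Acp2, lysosomal acid phosphatase, was at 84.2, 109, 70.9 and 115 CPM on chow and 205, 198, 141 and 152 CPM on HFD, and Lipa, lysosomal acid lipase, at 507, 576, 642 and 578 and at 904, 846, 687 and 760.5 CPM. In both, every HFD library, replicate 8 included, was above every chow library; groups were apart in this direction in 1.68% of all genes. Their log2 fold changes were 0.87 (SE 0.28) and 0.47 (SE 0.16), both with an edgeR adjusted p of 0.752. With the stellate and fibroblast covariate Acp2 was at 0.66 (SE 0.40) and Lipa at 0.29 (SE 0.21). Tpp1, a tripeptidyl peptidase gene, was at 209 ± 31.1 and 295 ± 60.6 CPM, and Gusb, beta-glucuronidase, at 219 ± 41.3 and 152 ± 41.7 CPM. That covariate moved the log2 fold change of Tpp1 from 0.50 to 0.51 and that of Gusb from -0.53 to -0.29.

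Lysosomal membrane and proton pump genes were higher in 17 and lower in 8 of 25 tested, with a median of 0.19 and 0 called; 2 were higher at an unadjusted p under 0.05 and 0 lower, against 2.61% and 2.74% of all genes. The pump subunit genes Atp6v1b2, Atp6v1h and Atp6v1e1 were at 56.2 ± 19.6, 53.9 ± 21.0 and 12.3 ± 4.87 CPM on chow and at 115 ± 42.1, 95.0 ± 49.2 and 29.96 ± 4.92 CPM on HFD. Atp6ap1, an accessory subunit gene, was at 123 ± 14.4 and 187 ± 41.1 CPM. Only Atp6v1e1 of these 4 had groups that did not overlap, which 1.68% of all genes had in this direction.

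Among genes of class II presentation, which include the invariant chain that cathepsin S trims, 8 of 10 tested were lower and 2 higher, with a median of -0.47 and 0 called. At an unadjusted p under 0.05, 6 were lower, against 2.74% of all genes, and 0 higher. Cd74, the invariant chain gene, was at 15822, 13931, 12864 and 12458 CPM on chow and 6965, 9904, 9364 and 14378 CPM in HFD replicates 5 to 8. As with Ctss, HFD replicates 5, 6 and 7 were below every chow library and HFD replicate 8 was within their range. Its log2 fold change was -0.44 (SE 0.16, edgeR adjusted p = 0.752) and 0.0017 with the stellate and fibroblast covariate. H2-Aa, H2-Ab1 and H2-DMb1 had log2 fold changes of -0.62 (SE 0.16), -0.48 (SE 0.14) and -1.06 (SE 0.42). With the stellate and fibroblast covariate they were at -0.095, -0.16 and -0.39. H2-Ab1 and H2-DMb1 were lower in every HFD library than in every chow library, as were 1.71% of all genes. With no filter edgeR called H2-Aa and Cd74. Of 5 endosomal Toll-like receptor genes, whose products endosomal proteases cleave, 3 were higher and 2 lower with 0 called, and Unc93b1, their trafficking chaperone, had a log2 fold change of -0.067. Tlr9 was at 151 ± 40.0 and 101 ± 28.1 CPM, Tlr7 at 233 ± 91.8 and 313 ± 49.0 CPM, Tlr8 at 58.7 ± 25.3 and 96.5 ± 52.8 CPM, and Tlr13 at 294 ± 43.6 and 259 ± 64.8 CPM. The log2 fold changes of these 4 were -0.58, 0.42, 0.72 and -0.18. With the stellate and fibroblast covariate they were -0.66, 1.00, -0.16 and -0.32.

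**Figure D5:**
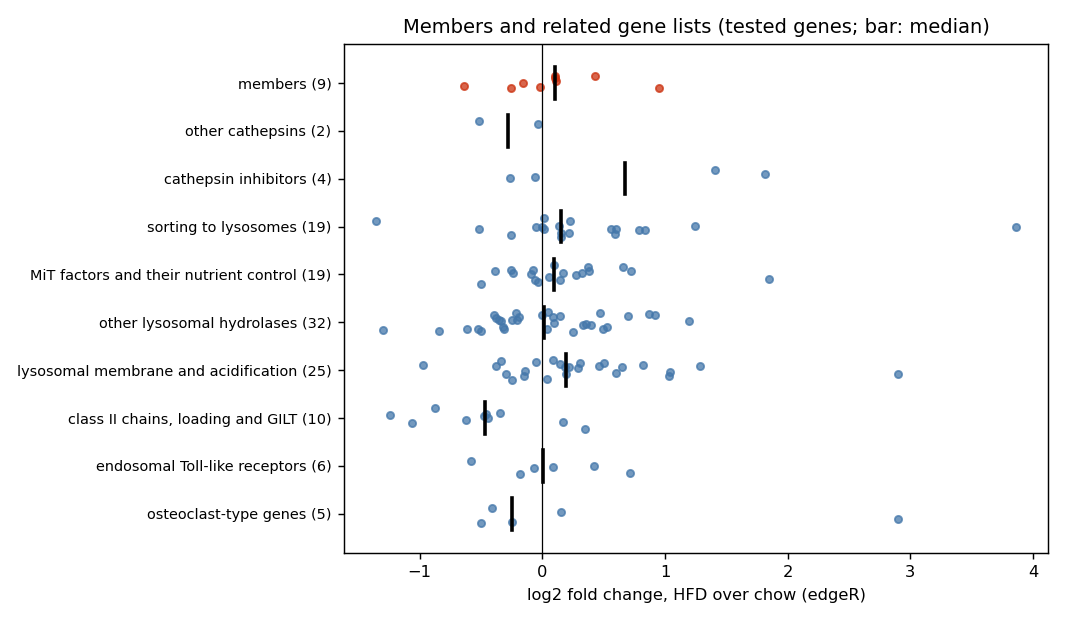
Points are the log2 fold changes (x axis, HFD over chow, edgeR) of the tested genes of each list, with the number tested in brackets and a black bar at the median; the members are in red. Members spread from -0.64 (Ctsl) to 0.95 (Ctsd) about a median of 0.10, and the class II list has the lowest median, -0.47.

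The gene whose level over the 8 libraries was most like that of each member, by Pearson's r of log2(CPM + 1), differed from member to member. These were Gng12 for Ctsd (r = 0.97), Mrc1 for Ctsb (0.97), Mpc1 for Ctss (0.97), Ccdc71 for Ctsc (0.93) and Adck2 for Ctsh (0.99). For Ctsl, Ctsz, Ctsa and Lgmn they were Maz (0.94), 4933403L11Rik (0.98), Rab11fip5 (0.95) and Eci1 (0.97). Each is the highest over the tested genes in 8 libraries that share their diet groups and scaling, so these r values are descriptions only.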

How the data were processed

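RNA from sorted islet macrophages, 500 pg per library, was amplified with the Ovation RNA-Seq System, per the labels' protocols. Neither strand nor molecular identifiers are stated, so reads may not be independent molecules. FastQC, Trim Galore, STAR and GRCm38 are named in the submitters' processing notes. The sources used here give neither their versions nor the counting program and its annotation. What the authors deposited is a table of expected counts, 7.66% to 8.32% of the values above 0 being fractional. They were rounded to whole numbers. Library totals were 4288666 to 6391250 counts.

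Counts were tested with edgeR (version 4.0.16): TMM scaling, filterByExpr, a robust quasi-likelihood fit on diet alone, and two-sided p-values with Benjamini-Hochberg adjustment at 0.05; 10129 genes passed the filter. SE is the fold change over the root of its F statistic. DESeq2 (1.42.0), limma-voom (limma 3.58.1), other scalings and filters, covariates and each library left out in turn were alternatives; R was version 4.3.3. Symbols, exons and coordinates came from GENCODE M21 (GRCm38), which held 48058 of 48440 identifiers; of 315 list symbols 2 were not found. Promoter sequences came from RefSeq (GRCm38.p6). Named were all members, per list the 4 tested genes of smallest p, and for each member the gene most like it. Members and lists were chosen with earlier results of these data known. Labels do not say whether libraries were prepared in separate batches, so p-values measure the spread between pools of mice as processed.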

Additional observations from a re-analysis of the deposited data

Results flagged for a closer look

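In 5 of 110 groups of 4 libraries examined (members, named genes and cell type sums), 1 library stood further from the others than Dixon's test allows at 95%; chance alone marks about 1 in 20 groups. None of the 5 was a member. Igf2r was at 0.402 CPM in HFD replicate 8 and at 16.9 to 19.6 CPM in the other HFD libraries. Ctla2b was at 5.21 CPM in HFD replicate 6, against 26.1 to 29.7 CPM in the other HFD libraries. Gusb was at 280.4 CPM in chow replicate 2 and at 192 to 204 CPM in the other chow libraries. Atp6v0d2 was at 3.304 CPM in chow replicate 4 and had 0 counts in the other chow libraries. The summed acinar transcripts were at 2217 CPM in HFD replicate 7 and at 51.2 to 134 CPM in the other HFD libraries.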

How the results depend on the processing

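With edgeR 0 of all genes, 0 members and 0 genes of the related lists were called. No filter on low counts gave 45 genes, 1 member (Ctsd) and 2 list genes (H2-Aa, Cd74); DESeq2 gave 92 genes and limma-voom 1, with 0 members in each. Leaving out each library gave 0 to 11 genes, 0 members and 0 list genes. Of 172 alternative fold changes of the 9 tested members 156 kept their direction and stayed above the threshold, 1 passed it (Ctsd, no filter) and 15 turned. With the stellate and fibroblast covariate the log2 fold changes that turned were Ctsa -0.057, Ctsb -0.028, Ctsh 0.15, Ctsl 0.11, Ctsz -0.083, Ctso 0.33, Serpinb6a -5.42, Ctla2b 0.67, Igf2r -0.50, Cd74 0.0017, Tlr8 -0.16, Atp6v0d2 -2.19 and Acp5 0.35. With library totals only, Lgmn was 0.063, Ctso 0.065 and Ctla2b 0.012; with upper quartile scaling Lgmn was 0.0052; with the islet endocrine covariate Lgmn was 0.038, Ctso 0.43 and Ctla2b 0.20; with limma-voom Ctso was 0.19 and Ctla2b 0.43. When single libraries were left out, ranges ran from -0.099 to 0.26 for Ctsa, -0.28 to 0.033 for Ctsh, -0.069 to 0.21 for Ctsz, -0.16 to 0.065 for Lgmn, -0.89 to 0.63 for Ctse, -0.31 to 0.30 for Ctso, -0.47 to 0.29 for Ctla2b and -0.013 to 0.33 for Nfatc1; for the cell type sums they were -1.17 to 0.048 for endothelial, -0.69 to 3.22 for acinar and -0.063 to 0.63 for T and NK cell transcripts. Added after seeing the data were the Ctsd sum with Gm49369 and the alternatives for Ctsk, whose mean on HFD was 0.637 to 1.83 CPM with 1 library left out, and the cell type sums. The cause of these changes was not tested. No paired analysis was possible because the replicate numbers of the diets, 1 to 4 and 5 to 8, share none. The members, Ctsk apart, had 203 reads or more per library; how many molecules these came from is not known.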

Other observations

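Among low-abundance inhibitor genes outside the rule for named genes, and chosen after their values were seen, Csta1 had 24 counts in chow, all in chow replicate 4, and 0 in HFD. Serpina3g, whose product inhibits cathepsins B and L, had 77 counts in chow, all in chow replicates 2 and 3, and 8 in HFD, all in replicates 7 and 8. Neither gene passed the filter on low counts.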
